A study of Homo sapiens with 8 samples.

Results

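The genes described here are the 162 of 25411 listed genes whose level was higher while nickel was in the medium than in any other library of the series. A gene was a member when its RPKM (a read count divided by transcript length and library size) was at least 1 in both nickel-exposed libraries and the smaller of these 2 values was at least 1.4 times the largest value over the other 6 libraries. RNA-Seq had been carried out on BEAS-2B, an immortalised human cell line from bronchial epithelium, with 2 biological replicates in each of 4 groups. Untreated cells (UT) received no nickel. Nickel-exposed cells (Ni-E) were harvested after 6 weeks in 100 µM NiCl2. Nickel-washed-out cells (Ni-W) went through the same exposure and were then grown without nickel for more than 6 months as a population that came from a single cell, so each Ni-W library samples 1 clone. The HCl3 group carries the treatment text of Ni-W, and its labels do not give its time without nickel or how it relates to the Ni-W clone. The labels assign both Ni-E libraries to experiment 2, and those of HCl3 to experiments 3 and 4, so experiment and group cannot be told apart. Because the rule used the RPKM of all 8 libraries, the height of Ni-E over the other groups is the choice itself and is described without a test.

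Cells that run short of amino acids, that load their endoplasmic reticulum with misfolded proteins, that lack haem or that sense double-stranded RNA all phosphorylate the translation factor eIF2α. Protein synthesis then slows, while the mRNA of the transcription factor ATF4 is translated more efficiently. ATF4 turns on genes for the synthesis and import of amino acids, for the charging of transfer RNAs and for the control of glutathione. This program is called the integrated stress response. A separate arm of the unfolded protein response raises the chaperones of the endoplasmic reticulum. The tumour suppressor p53 drives another set of stress genes, which includes the cell cycle inhibitor CDKN1A, and some genes such as SESN2 and GDF15 are known targets of both programs. Nickel ions can replace iron in dioxygenases and are well known to stabilise hypoxia-inducible factors, so genes of the hypoxia response are the textbook marks of nickel exposure.

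The members spanned a wide range of levels. Mean RPKM in Ni-E ran from 1.09 to 227 with a median of 7.90 (2 libraries for each mean), against medians of 3.95 in UT, 2.90 in Ni-W and 3.39 in HCl3. The ratio that defined membership had a median of 1.60. It lay between 1.4 and 1.5 in 47 members, between 1.5 and 2 in 85, between 2 and 3 in 23, and at 3 or above in 7. Most members therefore stood a moderate distance above the other groups, and a small number stood far above them. The library that came closest to Ni-E belonged to UT for 100 members, to HCl3 for 36 and to Ni-W for 26. Just inside the threshold were EFNB1 and ZBED3, both at a ratio of 1.402, and CHCHD6 at 1.404. Just outside were CHST7 and MARS, both at 1.396, and STARD8 at 1.392.

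**Figure D1:**
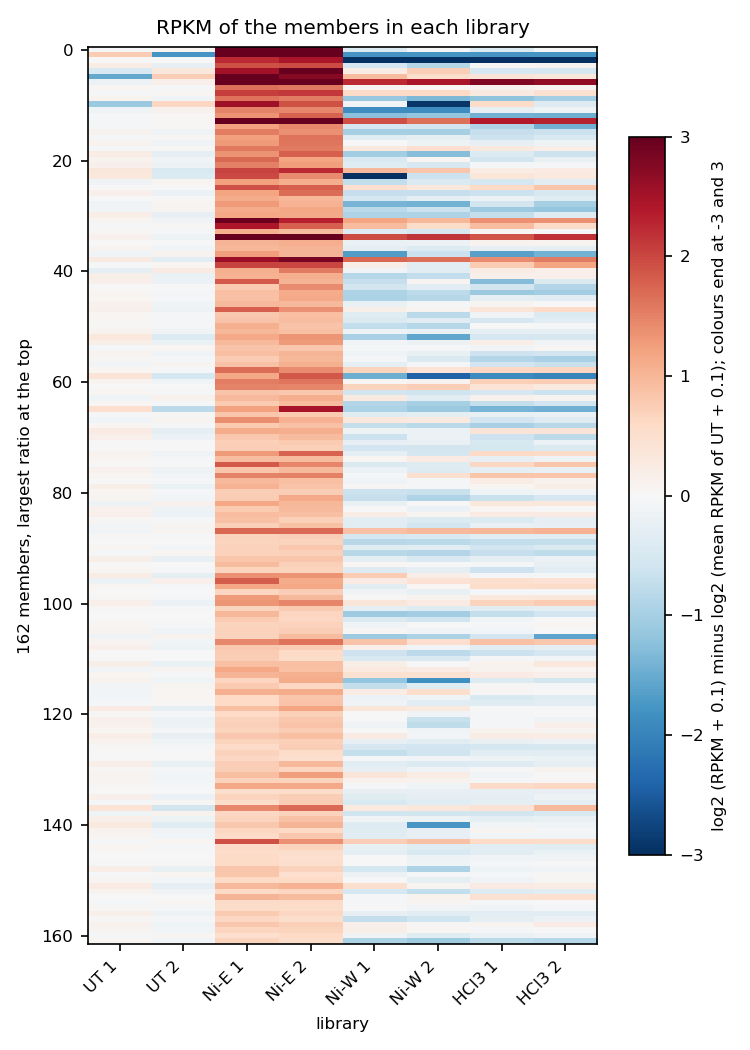
Each row is 1 of the 162 members, ordered by its ratio, and each column is a library; colour gives log2(RPKM + 0.1) minus the log2 of the UT mean plus 0.1. The 2 Ni-E columns are red in every row, as the rule requires, while the Ni-W and HCl3 columns hold blue rows, below UT, as well as a few rows that are red.

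Library totals ran from 26383920 to 45692298 reads, and the 10 most abundant genes took 3.24 to 3.87% of them. The epithelial markers KRT8, KRT18, KRT5, KRT7, KRT17, CDH1 and EPCAM summed to 603 to 1018 RPKM, with KRT5 at 0 in UT and Ni-E. Endothelial markers summed to at most 0.16 RPKM, and the 6 haematopoietic markers to between 17.2 and 22.9 RPKM, with 2 of the 6 at 1 or more in each group and CD3E at 0 throughout. Fibroblast markers summed to between 189 and 484 RPKM, with DCN at 0 throughout. In RNA from whole cultures, fewer cells that express a gene and less RNA per cell cannot be told apart.

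Pairwise DESeq2 fits across all genes place these numbers beside the background. A gene was called when its Benjamini-Hochberg adjusted P value was under 0.05 and its change was at least 1.5-fold. In Ni-E against UT, 128 members were called higher, where 3.75% of the 14478 genes tested were. In Ni-E against Ni-W, 151 were called higher with a background of 8.81%, and in Ni-E against HCl3, 153 with a background of 6.78%. The rule chose the members on these contrasts, so nothing is read from the counts. Without 1 Ni-E library the count against UT was 79 (replicate 1 left out) or 80 (replicate 2 left out).

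Genes of the integrated stress response were the largest group among the lists. From a list of 48 genes of the integrated stress and unfolded protein responses, 19 were members. ATF4 (hg19 chromosome 22, 39916569 to 39918691, plus strand) is itself among them. ATF4 had UT levels of 107 and 98.2 RPKM, Ni-E levels of 177 and 188, Ni-W levels of 62.9 and 58.7 and HCl3 levels of 52.5 and 57.4. Both Ni-E libraries were above every other library, and both washed-out groups were below UT. TRIB3 had UT levels of 27.7 and 23.5 RPKM, Ni-E levels of 74.7 and 66, Ni-W levels of 12.8 and 12.7 and HCl3 levels of 15.8 and 16.4. TRIB3, a pseudokinase that ATF4 induces and that restrains it in turn, was likewise highest in Ni-E and below UT in all 4 washed-out libraries. CHAC1 had UT levels of 8.36 and 7.24 RPKM, Ni-E levels of 24.2 and 23.1, Ni-W levels of 3.51 and 3.02 and HCl3 levels of 3.32 and 3.82. This gene (chromosome 15, 41245636 to 41248717, plus strand) encodes an enzyme that degrades glutathione, and its lowest Ni-E value was 2.76 times the highest value elsewhere. SESN2, a sestrin that restrains mTORC1, reached 15.3 and 15.5 RPKM in Ni-E against 5.68 to 8.05 elsewhere. NUPR1, a small stress-induced nuclear protein, differed most between the replicates, with 2.02 and 5.02 RPKM in Ni-E and 1.21 and 0.44 in UT.

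Enzymes of amino acid synthesis made up 8 of the 19. ASNS, asparagine synthetase (chromosome 7, 97481429 to 97501854, minus strand), showed the widest separation of the 8. ASNS had UT levels of 38.9 and 41.3 RPKM, Ni-E levels of 102 and 136, Ni-W levels of 16.8 and 17.8 and HCl3 levels of 14.7 and 14.5. The 2 washed-out groups were each below UT in both libraries, and no groups overlapped. PHGDH, PSAT1 and PSPH catalyse the successive steps from glycolysis to serine. PSAT1 had UT levels of 79.2 and 88.5 RPKM, Ni-E levels of 181 and 189, Ni-W levels of 47.6 and 53.5 and HCl3 levels of 39.4 and 37.5. PHGDH had UT levels of 86.8 and 77.4 RPKM, Ni-E levels of 153 and 197, Ni-W levels of 105 and 95.6 and HCl3 levels of 77 and 82.9. PHGDH was thus the one of the 3 with both Ni-W libraries above UT, and PSPH was nearly level outside Ni-E, with 13.6 to 15.8 RPKM there and 23.2 and 25.1 in Ni-E.

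SHMT2 and MTHFD2 carry serine carbon into the mitochondrial folate cycle. SHMT2 stood at 209 and 234 RPKM in Ni-E, 143 and 138 in UT, and 94.1 to 101 in the washed-out groups. MTHFD2 had UT levels of 106 and 113 RPKM, Ni-E levels of 177 and 181, Ni-W levels of 61 and 59.4 and HCl3 levels of 67.4 and 64.4. Both enzymes were therefore highest in Ni-E and lowest after nickel. CBS and CTH convert homocysteine to cysteine. CBS reached 46.2 and 57.6 RPKM in Ni-E against 15.9 to 20.4 elsewhere, and CTH 8.78 and 10.1 against 2.08 to 4.80, with its lowest values after nickel. SHMT2 overlaps NDUFA4L2, another member, on the opposite strand and reads of the overlap could have been counted for either, since the use of strand in the counting was not stated.

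Amino acid transporters and a transfer RNA synthetase completed the group. SLC7A11 and SLC3A2 are the subunits of the exchanger that imports cystine. SLC7A11 was at 7.63 and 8.67 RPKM in Ni-E and 2.53 to 4.35 elsewhere, and SLC3A2, which also pairs with other transporters, at 146 and 148 against 93.7 to 104. SLC1A4 and SLC1A5 import neutral amino acids. SLC1A5 had UT levels of 130.3 and 129 RPKM, Ni-E levels of 217 and 213, Ni-W levels of 87.4 and 88.4 and HCl3 levels of 89.7 and 95.2. SLC1A4 had 23.5 and 27.5 RPKM in Ni-E and 11.7 to 16.3 elsewhere. GARS, which charges transfer RNA with glycine, had 113 and 109 RPKM in Ni-E and 49.6 to 65.6 elsewhere. GDF15, a secreted stress cytokine that p53 also induces, is described with the p53 genes below.

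**Figure D2:**
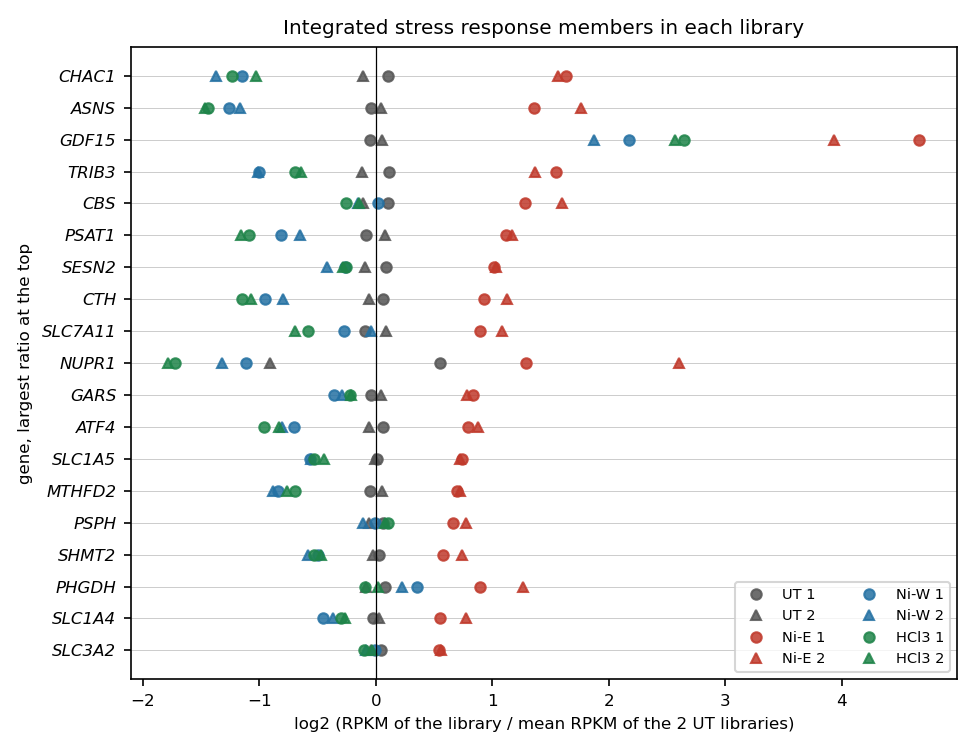
The 19 members on the stress response list, with the log2 ratio of each library's RPKM to the mean of the 2 UT libraries on the x axis; circles are replicate 1 and triangles replicate 2. All Ni-E points lie to the right of 0, most Ni-W and HCl3 points lie at or left of 0, and GDF15 alone has all 4 washed-out points well to the right.

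ATF4 binds, with C/EBP proteins, a short element whose letters are TGATGNAA. RefSeq promoter windows (GRCh38.p14, 250 bases before to 50 after each annotated start, several for some genes) were searched for these letters on both strands, a choice made after the members were seen. A window was at hand for 116 of the 162 members and for 15 of the 19 stress response members, which is 71.6 and 78.9%. Both are under 80%, so a comparison of shares is void and the hits are listed as a description only. The letters were in a window of 11 members, 6 of them on the stress response list, and in 4.46% of the 27305 genes with a window and 2.55% of the 8989 expressed genes with one. Sites of some of the 11, picked by hand, are printed below and nothing is concluded from them. They are shown with 10 flanking bases, 5′ to 3′ on the strand that carries the letters, with the match in capitals:
ASNS: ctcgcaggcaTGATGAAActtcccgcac
CHAC1: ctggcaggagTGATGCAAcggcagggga
SLC1A4: cggctggagaTGATGCAAacgggagccg
SLC1A5: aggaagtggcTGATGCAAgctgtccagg
SLC3A2: ggagcTGATGTAAggagtcctgc
GARS: gctcggagcaTGATGAAAtcgccgcgta
CARS: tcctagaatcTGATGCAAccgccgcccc
MTHFD1L: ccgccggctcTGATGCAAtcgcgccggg
The ASNS site (chr7:97872459-97872486, minus strand) begins 68 bases before the annotated start. The CHAC1 site (chr15:40953252-40953279, minus strand) begins 209 bases before the start, read in the direction of the gene. The remaining sites are at chr2:64989382-64989409 (SLC1A4, minus strand), chr19:46784894-46784921 (SLC1A5, minus strand), chr11:62881726-62881748 (SLC3A2, minus strand, where the window ends), chr7:30594835-30594862 (GARS, minus strand), chr11:3057408-3057435 (CARS, plus strand) and chr6:150866347-150866374 (MTHFD1L, plus strand). The other 3 members with the letters were CLCN5, LOC113230 and C9orf91. The letters of 5 other motifs were searched in the same windows. Of the 116 members with a window, the hypoxia response element core (ACGTG) was found for 45, the metal response element core (TGCACNC) for 15, the AP-1 site (TGANTCA) for 8, the antioxidant response element core (TGACNNNGC) for 26 and the heat shock element pair (GAANNTTC) for 8. Of the 15 stress response members with a window, the counts were 4, 1, 1, 6 and 2, in the same order. The antioxidant element core was thus found for as many of them as the ATF4 letters. In the expressed genes with a window the shares were 33.5, 15.1, 6.60, 19.5 and 6.27%, in the same order, and again no shares are compared. A match is not evidence that a factor binds there, and a window without the letters says nothing about binding elsewhere. No window was at hand for SLC7A11, PSPH, SHMT2 or NUPR1.

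The rest of the stress response list did not move as a block. The 48 genes can be divided into 12 tied to the endoplasmic reticulum and 36 others, a division made after the values were seen. The 12 are XBP1, HSPA5, HSP90B1, DNAJB9, HERPUD1, SDF2L1, SEL1L, EDEM1, CRELD2, MANF, PDIA4 and CALR. All 19 members were among the 36. In Ni-E against UT, 20 of the 36 were called higher and 0 lower, with a median log2 fold change of 0.62. Of the 12 endoplasmic reticulum genes, 0 were called by DESeq2 or edgeR, and their median was 0.12. Among all genes tested, 3.75% were called higher and 2.05% lower. At these shares a set of 12 would hold few called genes or 0, so nothing is read from the 0. At an unadjusted P value under 0.05 and any fold, DESeq2 gave 2 of the 36 lower, and 3 of the 12 higher and 1 lower. In Ni-E against Ni-W, 2 of the 12 and 29 of the 36 were called higher, and in Ni-E against HCl3, 2 and 27. The counts were the same by edgeR, and 0 genes of either part were called lower. Over all genes tested, 8.81% were called higher and 11.7% lower in Ni-E against Ni-W. The shares in Ni-E against HCl3 were 6.78 and 10.4%. The members were chosen on these contrasts, so the difference between the 2 parts of the list is a description. DDIT3 and ATF5, transcription factors of the same response, were not called in Ni-E against UT, with log2 fold changes of -0.22 and -0.40. The transfer RNA synthetases MARS, SARS, YARS and AARS sat just under the threshold, with ratios of 1.396, 1.39, 1.36 and 1.33. DDIT4 and STC2 were called higher in Ni-E than in UT but were kept out because a washed-out library was too close to Ni-E, at ratios of 1.26 and 0.986.

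Further members with related roles were not on any list and were picked out after their values were seen. PYCR1, which makes proline, had 91.0 and 101 RPKM in Ni-E, 54.2 and 50.5 in UT and 26.1 to 35.4 in the washed-out groups. PCK2, the mitochondrial form of phosphoenolpyruvate carboxykinase, had 33.1 and 43.5 in Ni-E, 20.7 and 18.5 in UT and 10.3 to 13.8 after nickel. GPT2 (mitochondrial alanine aminotransferase), GCAT (formation of glycine from threonine), MTHFD1L (mitochondrial formate synthesis), CARS (charging of transfer RNA with cysteine) and EIF4EBP1 (a repressor of cap-dependent translation) were members as well, with ratios between 1.42 and 1.78. As these genes were picked by hand, no theme is drawn from them.

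Members were then followed into the washed-out groups. The rule used the RPKM of these groups and kept out any gene whose level after nickel came close to that in Ni-E, so fewer genes raised after nickel could be members. The counts are printed beside the background as a description, and no excess of lower or higher members is read from them. Comparisons with UT share the same 2 UT libraries. In Ni-W against UT, 32 of 160 members tested were called lower and 8 higher, where 4.83% of the 15826 genes tested were called lower, 10.9% higher and 15.7% either way. Among the 10983 tested genes that also had an RPKM of at least 1 in both Ni-E libraries, 6.18% were lower and 7.11% higher. Members had a median log2 fold change of -0.29, and those expressed genes -0.06. In HCl3 against UT, 23 of 160 were lower and 11 higher, where 3.74% and 11.1% (14.8% either way) of all 15766 genes tested and 4.85% and 7.18% of the expressed genes were. The medians were -0.16 for members and -0.07 for the expressed genes.

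The RPKM values used by the rule gave the following counts, which are no independent support. Both Ni-W libraries were below both UT libraries for 87 of 162 members, where 36.7% of the expressed genes were, and above them for 25, where 33.4% were. Both HCl3 libraries were below UT for 79 members with a background of 35.7%, and above for 36 with a background of 35.6%. The differences between these shares were not tested. Calls depended on single libraries. In Ni-W against UT, 24 members were called in total without UT replicate 1 and 26 without Ni-W replicate 2, in place of 40. In HCl3 against UT, 22 were called without HCl3 replicate 2, in place of 34, and 21 of the 22 were among the 34.

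**Figure D3:**
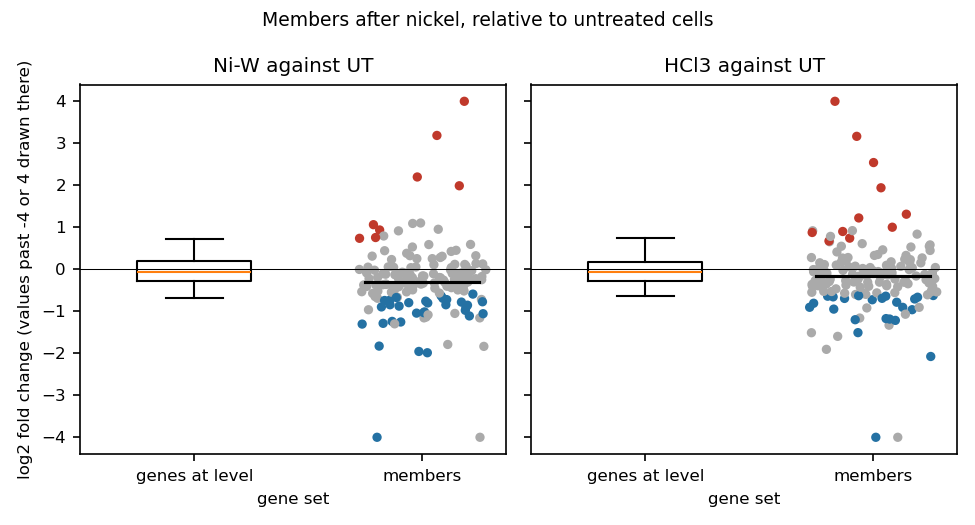
Log2 fold change (DESeq2) of the 162 members in Ni-W against UT and HCl3 against UT, with red points called higher, blue called lower and grey not called or not tested; the black line is the members' median, and values past the outermost axis labels are drawn at those labels. The box gives the median and quartiles, with whiskers at the 5th and 95th percentiles, of the genes with an RPKM of at least 1 in both Ni-E libraries. The members' line lies below the median of the box in both panels, and single members reach far above or below it.

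Stress response genes were among the members below UT after nickel. Of the 19 stress response members, 8 were lower than UT in Ni-W and 8 in HCl3, and 1, GDF15, was higher in each. Of all genes tested, 4.83% were called lower in Ni-W and 3.74% in HCl3, and 10.9 and 11.1% higher. The rule limited the level of members in these groups, so no excess is read from the counts. ASNS had log2 fold changes of -1.26 ± 0.12 (SE, adjusted P = 1.11e-24) in Ni-W and -1.51 ± 0.11 (SE, adjusted P = 6.16e-42) in HCl3. For CHAC1 they were -1.30 ± 0.21 (SE, adjusted P = 7.34e-09) and -1.20 ± 0.20 (SE, adjusted P = 2.33e-08). ATF4 itself was lower in both, at -0.78 ± 0.11 (SE, adjusted P = 1.13e-11) and -0.95 ± 0.10 (SE, adjusted P = 1.12e-18). TRIB3, PSAT1, MTHFD2 and CTH were lower in both groups too, with log2 fold changes between -1.04 and -0.77 in Ni-W and between -1.18 and -0.73 in HCl3. SLC1A5 was called in Ni-W (-0.59) and not in HCl3, and SLC7A11 in HCl3 (-0.69) and not in Ni-W. In HCl3 against Ni-W, 0 of the 19 were called by DESeq2 or edgeR, and 1 was higher and 4 lower at an unadjusted P value under 0.05 (DESeq2). The SLC1A5 change fell short of 1.5-fold without UT replicate 1 or Ni-W replicate 1 (-0.58 in each), as did the SLC7A11 change with the GC and length trends removed (-0.55, with or without the replicate block). The CTH call in Ni-W was lost without Ni-W replicate 1 (adjusted P = 0.0856).

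Over the whole list of 48, 11 genes were lower and 2 higher than UT in Ni-W, and 10 lower and 2 higher in HCl3, with median log2 fold changes of -0.29 and -0.27. Medians over all genes tested were 0.01 in both comparisons, with 4.83% called lower and 10.9% higher in Ni-W, and 3.74 and 11.1% in HCl3. Of the 12 endoplasmic reticulum genes, 0 were called in either comparison by DESeq2 or edgeR. At an unadjusted P value under 0.05 DESeq2 gave 4 higher and 2 lower in Ni-W, with 2 and 2 for HCl3. Of the genes picked by hand, PYCR1 and PCK2 were lower in both groups (Ni-W log2 fold changes of -0.98 and -0.84, HCl3 log2 fold changes of -0.69 and -0.64), MTHFD1L and EIF4EBP1 in Ni-W (-0.74 and -0.67), and GPT2, GCAT and CARS in neither.

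Among the p53 targets that were members, 3 of 6 showed another pattern. From a list of 23 p53 targets in the files, 6 were members: CDKN1A, BTG2, GDF15, SESN2, TNFRSF10B and FDXR. CDKN1A had UT levels of 25.9 and 22.9 RPKM, Ni-E levels of 189 and 123, Ni-W levels of 55.8 and 48.7 and HCl3 levels of 62.8 and 63. CDKN1A, the cyclin-dependent kinase inhibitor p21 (chromosome 6, 36646487 to 36655116, plus strand), thus peaked in Ni-E but stayed above UT in all 4 washed-out libraries. GDF15 had UT levels of 0.39 and 0.42 RPKM, Ni-E levels of 10.3 and 6.17, Ni-W levels of 1.83 and 1.48 and HCl3 levels of 2.53 and 2.4. BTG2 had UT levels of 2.04 and 2.28 RPKM, Ni-E levels of 7.4 and 7.22, Ni-W levels of 4.08 and 4.37 and HCl3 levels of 4.38 and 4.58. BTG2, an antiproliferative factor, and GDF15 (chromosome 19, 18496968 to 18499986, plus strand) held the same order, with no overlap between UT and the washed-out groups. Ni-W calls above UT were made for the 3 genes, at log2 fold changes of 1.06 ± 0.12 (SE, adjusted P = 1.19e-16) for CDKN1A, 1.99 for GDF15 and 0.94 for BTG2. In HCl3 they were 1.31 ± 0.10 (SE, adjusted P = 6.97e-34), 2.54 and 1.00. Over the whole list, 6 of 23 were higher and 0 lower in each group, by DESeq2 and by edgeR. Of all genes tested, 10.9% were called higher and 4.83% lower in Ni-W, and 11.1 and 3.74% in HCl3. At an unadjusted P value under 0.05, DESeq2 gave 9 higher and 6 lower in Ni-W, and 9 higher and 3 lower in HCl3. In each group 1 of the lower genes was a member.

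For these 3 genes the name raised only while nickel is present goes against the data, and the rule describes them better. GDF15 was not called in Ni-W once either Ni-W replicate was left out (highest adjusted P = 0.192), and BTG2 was not called there without Ni-W replicate 2 (0.0531). SESN2, TNFRSF10B and FDXR were not called in either washed-out group. SESN2 lay below UT in both, with log2 fold changes of -0.37 in Ni-W and -0.32 in HCl3, short of 1.5-fold. TNFRSF10B, a death receptor for the ligand TRAIL, had 39.8 and 37.9 RPKM in Ni-E and 23.8 to 26.6 elsewhere. FDXR, the mitochondrial ferredoxin reductase, had 45.1 and 39.3 in Ni-E and 19.0 to 24.5 elsewhere. PMAIP1, a pro-apoptotic p53 target that was off the list and chosen after its values were seen, had 40.7 and 34.4 in Ni-E and 17.8 to 22.0 elsewhere.

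Several of the largest ratios belonged to genes that were nearly silent without nickel. BCHE, described below, also had one of the largest ratios but was expressed in untreated cells. RFPL4A led with 1.48 and 3.14 RPKM in Ni-E, from 52 and 109 reads, against at most 1 read in any other library, a ratio to UT of 72.7 with an exact 95% counting interval of 19.8 to 605. This gene has close relatives in the genome, and its counts are uncertain. PAGE5, a cancer-testis antigen on the X chromosome, had 186 and 170 reads in Ni-E, 10 and 0 in UT and 0 in all washed-out libraries, at least 63.6-fold above Ni-W and 65.2-fold above HCl3. GGT1, a glutathione-degrading transferase with several paralogs, reached 1.07 and 1.11 RPKM against 0.07 to 0.26, and CD33, a receptor known from myeloid cells, 1.61 and 2.30 against 0.11 to 0.40. The haematopoietic markers summed to 18.5 and 22.9 RPKM in the Ni-E libraries and to 17.2 to 22.8 in the others, and their part in the CD33 level was not tested.

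LAMA1, HSPB8 and HOXB9 were expressed in untreated cells and stood higher in Ni-E. LAMA1, a laminin chain of basement membranes, had 7.32 and 6.90 RPKM in Ni-E and 2.15 to 2.41 in the other 6 libraries, which were nearly level. HSPB8, a small heat shock protein, had 7.28 and 7.46 in Ni-E and 1.59 to 2.55 elsewhere. HOXB9 had UT levels of 3.67 and 4.4 RPKM, Ni-E levels of 11.4 and 11.2, Ni-W levels of 1.04 and 1.04 and HCl3 levels of 3.4 and 3.67. HOXB9, a homeobox transcription factor (chromosome 17, 46698519 to 46703835, minus strand), was thus near the UT level in HCl3 and well below it in Ni-W.

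Several members left the UT level in opposite directions after nickel. BCHE had UT levels of 1.76 and 1.72 RPKM, Ni-E levels of 8.56 and 9.94, Ni-W levels of 0 and 0.01 and HCl3 levels of 0.02 and 0.06. BCHE, butyrylcholinesterase (chromosome 3, 165490692 to 165555253, minus strand), had 1 read in the 2 Ni-W libraries together against 182 and 124 in UT, a ratio of UT to Ni-W of 378 (95% counting interval 67.3 to 14966, adjusted P = 3.36e-08), and its log2 fold change in HCl3 was -5.54 ± 0.61 (SE, adjusted P = 5.48e-18). SLC7A2, a transporter of arginine and lysine, was lower in Ni-W (-1.83 ± 0.30 (SE, adjusted P = 1.52e-08)) and in HCl3 (-0.96 ± 0.28, adjusted P = 0.00295), where the call was lost under the replicate block (adjusted P = 0.056) and without UT replicate 2 or HCl3 replicate 2. LOC645638, a transcribed pseudogene, was lower in both as well (-1.96 and -2.08), and its 2 UT libraries differed, with 7.99 and 4.21 RPKM. Without UT replicate 1 its Ni-W call was lost (adjusted P = 0.109). MT1E, the metallothionein among the members, was lower in Ni-W (-1.29 ± 0.27, adjusted P = 1.49e-05), with 29.5 and 17.6 RPKM in UT, 52.0 and 59.6 in Ni-E and 11.9 and 7.89 in Ni-W. Its sequence is close to that of other metallothioneins, and without UT replicate 1 the call was lost (adjusted P = 0.0592).

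On the higher side, PPP1R14C, an inhibitor of protein phosphatase 1, had 2 and 3 reads in UT and was 18.0 times as high in Ni-W (95% counting interval 7.48 to 56.5) and 24.3 times as high in HCl3 (10.2 to 76.0), still well under its 3.68 and 3.01 RPKM in Ni-E. GATM, which makes the precursor of creatine, and NTN1, the secreted guidance protein netrin-1, were also raised. GATM was outside the naming rule and was picked after its values were seen. GATM had UT levels of 0.07 and 0.04 RPKM, Ni-E levels of 1.17 and 1.37, Ni-W levels of 0.5 and 0.59 and HCl3 levels of 0.47 and 0.61. NTN1 had UT levels of 0.2 and 0.1 RPKM, Ni-E levels of 1.37 and 1.69, Ni-W levels of 0.73 and 0.69 and HCl3 levels of 0.57 and 0.64. Both genes had Ni-E highest, the washed-out groups in between and UT lowest, without overlap. Their log2 fold changes were 3.19 ± 0.71 (SE, adjusted P = 6.76e-05) for GATM and 2.20 ± 0.39 (SE, adjusted P = 2.15e-07) for NTN1 in Ni-W, and 3.17 ± 0.70 (SE, adjusted P = 6.05e-05) and 1.94 ± 0.40 (SE, adjusted P = 1.1e-05) in HCl3. The NTN1 call in HCl3 was lost without HCl3 replicate 2 (adjusted P = 0.0646). How the GATM calls fared under the alternatives is not given. The members called higher than UT in Ni-W, 8 in all, also included FAM84B and ETV4, and the 11 in HCl3 included EEF1A2, ZNF516, TLE2, MTUS1 and F2RL1, names given after their values were seen.

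**Figure D4:**
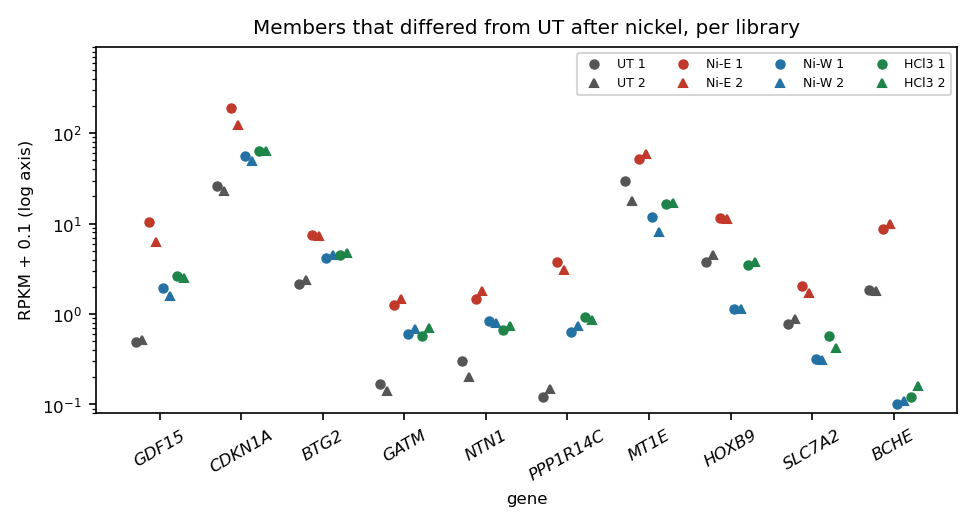
RPKM + 0.1 of 10 members in each library on a log axis, with circles for replicate 1 and triangles for replicate 2. From GDF15 to PPP1R14C the Ni-W and HCl3 points lie between UT and Ni-E, and from MT1E to BCHE the Ni-W points lie below UT.

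HCl3 and Ni-W were compared directly, to ask where the 2 washed-out groups differed. Of 155 members tested, 9 were higher in HCl3 and 1 lower, where 3.1% and 1.66% (4.77% either way) of the 14956 genes tested were, and 2.33% and 0.767% of the expressed genes. HOXB9 differed most, its log2 fold change being 1.75 ± 0.21 (SE, adjusted P = 7.64e-15). Among the better-measured genes SULF2 followed at 1.02, a call that was lost without Ni-W replicate 2 or either HCl3 replicate. NPAS1, a transcription factor of the bHLH-PAS family, came next with 0.96 ± 0.16 (SE, adjusted P = 7.92e-08). Ni-W replicates gave NPAS1 3.45 and 3.77 RPKM and HCl3 7.05 and 7.08, the UT level being 7.17 and 5.52. The count of 10 rested on single libraries and was 5 without Ni-W replicate 2, 3 without HCl3 replicate 1 and 4 without HCl3 replicate 2. In RPKM, both HCl3 libraries exceeded both Ni-W libraries for 70 of 162 members, where 34.1% of expressed genes did, and fell below for 34, where 29.6% did.

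The other fixed lists held few members. Of 30 immediate early and AP-1 genes, 3 were members. FOS, a subunit of AP-1, had 1.48 and 1.44 RPKM in Ni-E and 0.41 to 0.64 elsewhere, DUSP1, a phosphatase of MAP kinases, 45.7 and 40.9 against 17.5 to 25.7, and IER3, an early response gene that limits cell death, 121 and 121 against 45.8 to 75.4. IER3 was lower than UT in Ni-W (-0.69 ± 0.11 (SE, adjusted P = 9.04e-09)). Single members came from the lists for heat shock proteins (HSPB8), NRF2 targets (SLC7A11), metal response (MT1E), epithelial genes (PVRL4), cancer-testis antigens (PAGE5) and lysosome and autophagy (TFEB). PVRL4, the adhesion protein nectin-4, had 1.83 and 1.15 RPKM in Ni-E and 0.25 to 0.59 elsewhere, and TFEB, which controls lysosomal genes, 3.57 and 3.54 against 1.30 to 2.15.

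None of the 50 hypoxia-inducible genes was a member, nor any of the 40 interferon-stimulated genes, the 30 genes of cholesterol and fatty acid synthesis, the 36 genes of the cell cycle or the 34 cytokine and NF-kB genes. In Ni-E against UT, 7 hypoxia genes were called higher and 1 lower, with 3.75% of all genes tested called higher and 2.05% lower. Of 49 tested in the washed-out groups, 17 were higher than UT and 2 lower in Ni-W, and 30 higher and 1 lower in HCl3, where 10.9 and 11.1% of all genes tested were called higher and 4.83 and 3.74% lower. A gene that stays at its Ni-E level after nickel cannot meet the rule. Members were 162 of the 10985 expressed genes, and 43 of the hypoxia genes were expressed at that level. At that share a list of this size would hold few members or 0, so nothing is read from a list without members. Lists of mesenchymal, matrix, growth factor, WNT and related signalling, chromatin and AHR genes held 0 members as well.

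By level, the highest members were RPL13A, a protein of the large ribosomal subunit, with 239 and 215 RPKM in Ni-E and 81.9 to 142 elsewhere, and then SHMT2, SLC1A5, PSAT1, ATF4, MTHFD2, PHGDH and CDKN1A, all described above. RPL13A was lower than UT in Ni-W (-0.74) and in HCl3 (-0.63), where it fell short of 1.5-fold with the GC and length trends removed (-0.55, with or without the replicate block) and without HCl3 replicate 1 (-0.56). It overlaps a pseudogene copy and the snoRNA genes in its introns on its own strand, which leaves its counts uncertain. Receptor and signalling genes outside the lists, picked after their values were seen, included FGFR4, a fibroblast growth factor receptor, at 8.62 and 8.06 RPKM in Ni-E against 3.47 to 4.57, and the ETS factors ETV5, at 24.8 and 15.3 against 6.18 to 9.82, and ETV4, at 7.14 and 4.81 against 1.72 to 3.36. ETV4 was called higher than UT in Ni-W (0.76 ± 0.23, adjusted P = 0.00599), a call that was lost without UT replicate 1 or either Ni-W replicate.

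The 2 Ni-E libraries did not give all members the same height. Replicate 2 was the higher one for 84 members and replicate 1 for 76, and across the 10985 expressed genes for 5838 and 5089. For the 19 stress response members replicate 2 was higher in 14 and replicate 1 in 5, with a median ratio of replicate 2 to replicate 1 of 1.06. The 6 p53 members had a median ratio of 0.912, GDF15 being lowest at 0.600 and CDKN1A at 0.650. NUPR1 had the largest ratio, 2.49. With 1 library on each side these values are a description.

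Positions and transcript properties were compared with the 10985 expressed genes, without a test. Chromosome 19 held 22 members, 2.82% of its expressed genes, chromosome 17 held 19 (2.69%), chromosome 22 held 9 (3.21%) and chromosome 18 held 5 (3.11%), while chromosome 13 held 1 (0.546%). Members lay next to each other, with no expressed gene between them, in 5 places: SLC43A3 and RTN4RL2, SHMT2 and NDUFA4L2, FDXR and HID1, PPP1R14C and MTHFD1L, and PAGE5 and MAGEH1. SHMT2 and NDUFA4L2 overlap, and the gaps of the others run from 32957 to 615941 bases. Of the 162 members, 150 were protein-coding, 7 were snoRNAs, 1 was a miRNA, 3 were long non-coding RNAs and 1 was a transcribed pseudogene.

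The small RNA genes need care. The 7 snoRNAs were 6.09% of the 115 snoRNAs with an RPKM of at least 1 in both Ni-E libraries, where protein-coding genes gave 1.43%. Together with MIR636 they had 6 to 71 reads in a Ni-E library and 0 to 30 in any other library. Each lies within a host gene on the same strand. The hosts SRSF2, SNRPB, SNHG1, RPL3, RPL23A and SNHG5 were not members, with host ratios of 0.655 to 1.16. Whether the reads come from the small RNA or from the host's introns cannot be told from gene counts. In all, 19 members overlapped another listed gene on the same strand and 20 on the opposite strand, and 124 overlapped none.

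Members had transcripts rich in G and C. The median GC content was 54.6% for the 160 members with a value and 47.6% for the expressed genes. Among genes with at most 45% GC, 0.609% were members, between 45 and 50% 1.53%, between 50 and 55% 1.73%, between 55 and 60% 1.74%, and above 60% 3.38%. Stress response members had a median of 52.3%. When the trends of each library with GC content and length were removed before the rule was applied, 126 genes passed, of which 109 were members, and 15 of the 19 stress response members were kept. The 53 other members did not pass once these trends were removed. In counts with the same correction, 104 members were called in Ni-E against UT, 43 in Ni-W against UT and 35 in HCl3 against UT, in place of 128, 40 and 34.

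**Figure D5:**
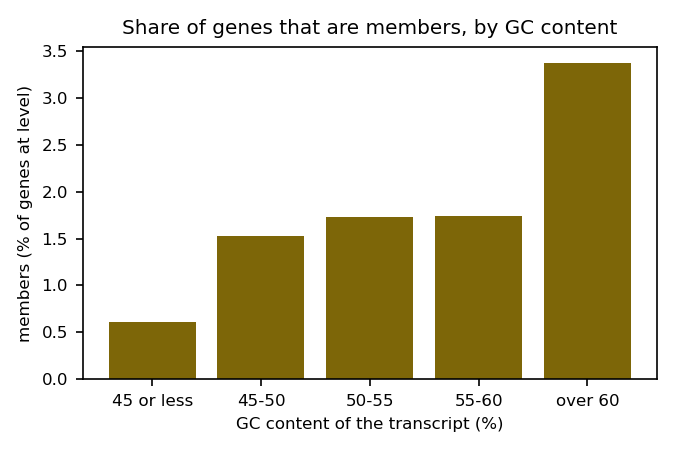
Share of the expressed genes (RPKM of at least 1 in both Ni-E libraries) that were members, in 5 bins of transcript GC content. The bars rise from 0.609% in the lowest bin to 3.38% in the highest.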

How the data were processed

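RNA-Seq libraries from BEAS-2B cells, 8 in all and 2 in each of the 4 groups that the sample labels give, were used. The authors aligned the reads to hg19 with STAR 2.4 (version from the submitters' processing notes), removed reads with several alignments, and deposited read counts per RefSeq gene and, from the same reads, RPKM values rounded to 2 decimals. Labels and files do not say whether strand was used in counting.

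Members were found from the deposited RPKM. The members, the gene lists and the named-gene rule were chosen with earlier results of these data known. Counts were tested pairwise with DESeq2 1.42.0 in R 4.3.3 (4 libraries in a fit, two-sided Wald test, Benjamini-Hochberg adjustment over all genes tested, called under 0.05 at 1.5-fold or more). With 2 libraries a group the P values rest on a spread shared across genes and cover these libraries only. Alternatives used edgeR 4.0.16, TMM scaling, a mean count of at least 10, all libraries in one fit, a replicate block, GC and length correction, and each library left out. Against a group with 0 reads a fold was a lower bound, computed against 3 reads per library. Against a group with 1 to 3 reads in its libraries a ratio of summed reads was given with its exact 95% interval. Bounds and intervals cover counting error only.

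Named genes were the 12 largest ratios with at least 50 reads on average in Ni-E, the 8 highest in Ni-E, members on a list, the 3 nearest the threshold on each side, the 4 largest called changes each way after nickel at a mean count of 50 or more, and adjacent members. Scripts were tested on simulated data.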

Additional observations from a re-analysis of the deposited data

Results flagged for a closer look

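Each value in this part is a log2 fold change of HCl3 against Ni-W from the direct DESeq2 comparison of these groups, so the changes of the 2 groups from UT were tested against each other. TMEM40, a membrane protein, was the member that was lower in HCl3 (-0.80), with 5.99 and 5.79 RPKM in Ni-W and 3.18 and 3.60 in HCl3, and it was not called without HCl3 replicate 1 (adjusted P = 0.0855). HOXB9 (1.75) and NPAS1 (0.96), both described above, were called under all alternatives tried. F2RL1, a protease-activated receptor, was higher in HCl3 (1.30), at 0.27 and 0.16 RPKM in Ni-W and 0.45 and 0.64 in HCl3. SULF2, which removes sulfate groups from heparan sulfate, was at 0.80 and 0.66 against 1.53 and 1.51 (1.02), and was not called once Ni-W replicate 2 or either HCl3 replicate was left out (highest adjusted P = 0.169). PITPNC1, a phosphatidylinositol transfer protein, was at 0.37 and 0.51 against 0.77 and 0.78 (0.82), and its call was lost under the replicate block and without Ni-W replicate 1 or either HCl3 replicate (highest adjusted P = 0.462). CERS1, a ceramide synthase whose locus overlaps GDF1 on the same strand, was at 2.25 and 2.09 against 3.84 and 3.75 (0.80). EEF1A2, a translation elongation factor, was at 36.0 and 37.2 against 56.5 and 58.1 (0.63), and PCOLCE2, a procollagen processing protein, at 1.26 and 1.17 against 1.97 and 2.06 (0.71). MT1E was at 11.9 and 7.89 against 16.5 and 16.8 (0.73), a call that was lost under the replicate block and without Ni-W replicate 2 or either HCl3 replicate (highest adjusted P = 0.380).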

How the results depend on the processing

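The number of members depended on the ratio asked for, with 514 genes at 1.2 and 30 at 2, in place of 162, and leaving out 1 library gave 167 to 289. With TMM scaling 140 genes passed, all of them members, and with HCl3 left out of the rule 223. Without the small RNA genes 154 members remained, and without the GC and length trends 126 genes passed; both alternatives were chosen after seeing the data. With at least 2-fold in place of 1.5-fold, 18 members were called in Ni-W against UT (40 at 1.5-fold), 14 in HCl3 against UT (34), 3 in HCl3 against Ni-W (10), 68 in Ni-E against UT (128) and 96 in Ni-E against HCl3 (153). By edgeR 19 were called in HCl3 against Ni-W. Leaving out 1 library gave 24 to 38 in Ni-W against UT, 22 to 29 in HCl3 against UT, 3 to 8 in HCl3 against Ni-W, 79 to 105 in Ni-E against UT, 130 to 134 in Ni-E against Ni-W and 114 to 137 in Ni-E against HCl3.

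The replicate numbers did not pair the samples, since only 2 pairs exist and the correlation of same-numbered deviations ran from -0.145 to 0.212 over the comparisons. A replicate block gave 35 calls in Ni-W against UT, 25 in HCl3 against UT, 6 in HCl3 against Ni-W, 103 in Ni-E against UT, 140 in Ni-E against Ni-W and 138 in Ni-E against HCl3. When the GC and length trends were also taken out, the block left 6 calls in HCl3 against Ni-W and 82 in Ni-E against UT. A block with crossed numbers, chosen after seeing the data, gave 27 in HCl3 against UT and 117 in Ni-E against UT. For the calls of named members, 511 gene and alternative pairs kept direction and side of the threshold, 35 kept only the direction and none reversed. The cause of these changes was not tested. With 2 libraries in each group and few reads for some members, changes near 1.5-fold were at the limit of what could be called.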
